A study of Mus musculus with 4 samples.

Results

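Cells make cholesterol from acetyl-CoA by way of mevalonate and squalene. After squalene is oxidized, lanosterol synthase closes the sterol rings, and a series of demethylases, reductases, an isomerase and a desaturase in the membrane of the endoplasmic reticulum turns lanosterol into cholesterol. The genes of these enzymes are textbook targets of the transcription factor SREBP2, which is released when membrane sterol is low, and cells of the brain rely on their own synthesis because the blood-brain barrier keeps circulating cholesterol out. Here 8 genes of the steps after squalene were read in neural stem/progenitor cells (NSPCs): Lss, Cyp51, Tm7sf2, Nsdhl, Hsd17b7, Ebp, Sc5d and Dhcr7. The rule takes every probe that carries 1 of these 8 gene names and itself uses no measured value. That gave 11 of the 55681 probes on the array, with 2 probes each for Tm7sf2, Nsdhl and Hsd17b7 and 1 for each of the others, and 8 of the 20228 genes that were tested. The genes lie on chromosomes 10 (Lss), 5 (Cyp51), 19 (Tm7sf2), 1 (Hsd17b7), 9 (Sc5d), 7 (Dhcr7) and X (Nsdhl and Ebp), and the part of the transcript under each probe was not looked up here.

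The NSPCs came from mouse embryos of embryonic day 13.5 and grew as neurospheres in medium with B-27, EGF and basic FGF. PJ34 is an inhibitor of poly(ADP-ribose) polymerases. Each array compared cells given 20 μM PJ34 (RNA in Cy5) with untreated cells of the same genotype (RNA in Cy3), with 2 arrays of independently prepared RNA from wild-type cells and 2 from Trp53-/- cells, which are null for the tumour suppressor p53 and derive from a line bred from heterozygous mice. The comparison asked which transcripts PJ34 changed and whether p53 was needed. The dyes were not swapped, and the time of treatment before RNA extraction is not given in the sources used here. The arrays of the genotypes were scanned in separate periods, so that genotype and array run cannot be told apart. Slc:ICR is the only strain named for the NSPCs, and the strain of the Trp53 line is not given in the paper. Any strain difference between wild-type and Trp53-/- cells therefore cannot be told apart from genotype either.

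The number of probes well above background was 21506 to 24536 in the control channel and 26078 to 27157 in the PJ34 channel of an array, and no spot was saturated. The number of arrays limits the precision. In the untreated cells, 9 of 9 NSPC markers were well above background on all 4 arrays, none of 5 markers of fibroblasts and meninges was on any, and of 6 microglial markers Csf1r and Itgam were on all 4 and Aif1, Cx3cr1 and P2ry12 on none. Trp53 itself read 8.28 and 8.51 in untreated wild-type and 7.56 and 7.82 in untreated Trp53-/- cells (log2 level), and whether its probe lies in the deleted part is not given. Cdkn1a, a p53 target, read 1.84 and 1.23 on the wild-type arrays (log2 ratio of PJ34 over control) and -0.48 and -0.74 on the Trp53-/- arrays. On the array of Trp53-/- replicate 2 the treated and the untreated RNA differed in sex-linked genes, at -1.39 for Xist, 4.22 for Eif2s3y and 3.12 for Ddx3y. This bears on the X-linked members Nsdhl and Ebp. It also means that on this array a difference between the cultures and the effect of PJ34 cannot be told apart for any of the 8 members. Between the untreated genotypes the Y-linked Eif2s3y differed as well, at 8.96 and 8.47 in wild-type and 6.01 and 6.24 in Trp53-/- (log2 level). The Y-linked Ddx3y did too, with a difference of -2.05. The sex of the cells is not given, and for Nsdhl and Ebp it cannot be told apart from genotype.

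The bases before the gene starts are shown because the members differed in the size of their change and SREBP2 is known to act close to gene starts, often beside the factors that bind CCAAT boxes. The sequences are the 250 bases upstream of the RefSeq gene start on GRCm38.p6, 5′ to 3′ on the strand of the gene, for the members with the largest changes in wild-type (Lss and Dhcr7), a member with 2 alike values in each genotype (Hsd17b7) and those with the smallest changes (Nsdhl and Ebp). Capitals mark CCAAT or its complement ATTGG, the loose sterol regulatory form TCACNNCA and the palindromic E box CACGTG. Dhcr7 has 3 listed starts, of which the one farthest downstream is shown.
Lss (chr10:76531355-76531604, + strand): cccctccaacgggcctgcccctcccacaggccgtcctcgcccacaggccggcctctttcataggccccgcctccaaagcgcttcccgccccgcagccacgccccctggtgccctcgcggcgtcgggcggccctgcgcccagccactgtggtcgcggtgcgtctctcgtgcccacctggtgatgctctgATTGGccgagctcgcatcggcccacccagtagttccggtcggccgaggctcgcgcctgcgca
Dhcr7 (chr7:143829964-143830213, + strand): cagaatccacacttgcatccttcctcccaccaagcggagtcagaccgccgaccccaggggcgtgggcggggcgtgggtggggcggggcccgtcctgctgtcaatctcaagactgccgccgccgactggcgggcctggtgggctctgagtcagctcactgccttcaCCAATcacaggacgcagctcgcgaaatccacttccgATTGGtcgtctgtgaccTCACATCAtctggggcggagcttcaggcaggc
Hsd17b7 (chr1:169969206-169969455, - strand): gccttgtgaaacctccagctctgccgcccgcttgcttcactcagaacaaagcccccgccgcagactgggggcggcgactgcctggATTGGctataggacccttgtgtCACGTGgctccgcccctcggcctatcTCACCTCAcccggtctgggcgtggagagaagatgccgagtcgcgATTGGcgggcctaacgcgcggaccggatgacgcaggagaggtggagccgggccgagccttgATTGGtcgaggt
Nsdhl (chrX:72918271-72918520, + strand): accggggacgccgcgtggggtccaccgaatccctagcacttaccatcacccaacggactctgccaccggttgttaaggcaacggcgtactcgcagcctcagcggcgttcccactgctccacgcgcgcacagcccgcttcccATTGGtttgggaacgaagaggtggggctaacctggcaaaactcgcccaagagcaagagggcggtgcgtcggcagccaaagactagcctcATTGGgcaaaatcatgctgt
Ebp (chrX:8193513-8193762, - strand): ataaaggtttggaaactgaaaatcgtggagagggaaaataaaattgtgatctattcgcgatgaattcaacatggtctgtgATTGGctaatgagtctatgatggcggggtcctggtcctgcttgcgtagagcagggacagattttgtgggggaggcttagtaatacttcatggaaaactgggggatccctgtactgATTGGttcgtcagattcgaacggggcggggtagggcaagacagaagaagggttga

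Each motif was searched on both strands of the same window in all 32851 listed promoters of that length. CCAAT was found for 8 of 8 members, counting any start of a gene, and in 33.8% of all promoters. The GC box GGGCGG, which is not in capitals here, was likewise found for 8 of 8 members and in 32.7% of all promoters. TCACNNCA was found for 4 members (Cyp51, Hsd17b7, Sc5d and Dhcr7) and in 11.4% of all promoters, and CACGTG for 3 members (Hsd17b7, Sc5d and Dhcr7) and in 6.02%. The longer form TCACNCCAC, of which every match is also a match of TCACNNCA, was found for none of the members and in 1.05% of all promoters. Among the members whose values were largest, Dhcr7 held both TCACNNCA and CCAAT in the window shown, whereas Lss held CCAAT without TCACNNCA. Of the Dhcr7 windows not shown, that of start 1 held neither, and that of start 2 held TCACNNCA and CACGTG without CCAAT. The matches are a description of letters and not of binding.

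The first 3 enzymes act on the newly closed ring. Lss encodes lanosterol synthase, which makes lanosterol from squalene epoxide. Its probe lies on chromosome 10 of mm9, from 76015992 to 76016051. The log2 ratios of PJ34 over control, in which -1 stands for 2-fold lower, were -1.29 and -1.32 on the wild-type arrays and -0.83 and -0.56 on the Trp53-/- arrays. Both wild-type values were below both Trp53-/- values, and the wild-type replicates differed by less than those of Trp53-/-. After loess, which sets each ratio relative to probes of like brightness, Lss fell in wild-type to 0.406 of control, at the 8th lowest place of 20228 genes. The mean log2 ratio was -1.30 ± 0.021 (SD, n = 2), with Storey's q, an estimate of the false discovery rate over all genes, of 3.18e-05. In Trp53-/- Lss was at 0.616 of control after loess (-0.70 ± 0.19 SD, n = 2, q = 0.000977). Under median centring its Trp53-/- mean was 0.052. Values of the other members below are also those after loess, unless median centring is named.

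Cyp51 encodes the cytochrome P450 that takes the first methyl group off lanosterol, the target of azole antifungals in its fungal form. Its log2 ratios were -0.75 and -0.85 in wild-type and -0.56 and -0.996 in Trp53-/-. Here the Trp53-/- values lay on either side of the wild-type values. The mean was -0.80 ± 0.075 (SD, n = 2, q = 0.000599) in wild-type and -0.78 ± 0.31 (SD, n = 2, q = 0.00116) in Trp53-/-, so that Cyp51 was lower in both after loess. Under median centring its Trp53-/- mean was 0.011.

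Tm7sf2 encodes a sterol reductase that removes the double bond left by that step. The brighter of its probes read -0.22 and -0.59 in wild-type and -0.62 and -0.07 in Trp53-/-. The arrays of each genotype differed more from each other than the genotype means did. The mean passed in wild-type (-0.41 ± 0.26 SD, n = 2, q = 0.0322) and did not pass in Trp53-/- (-0.34 ± 0.39 SD, n = 2, q = 0.0567). The second probe, with -0.37 and -0.78 in wild-type and -0.69 and -0.08 in Trp53-/-, passed in both genotypes (q = 0.0115 and q = 0.0497).

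Nsdhl and Hsd17b7 act next, in the removal of the remaining methyl groups from the ring. Nsdhl, an X-linked dehydrogenase, read -0.26 and -0.48 in wild-type and -0.18 and 0.12 in Trp53-/-. It was the only member with a value above 0, on the array of Trp53-/- replicate 2 on which the sex-linked genes also differed. The part of that difference in the result was not tested. After loess Nsdhl was lower in wild-type (-0.37 ± 0.15 SD, n = 2, q = 0.0178), and its mean of -0.030 ± 0.21 (SD, n = 2) in Trp53-/- did not pass (q = 0.427). Under median centring its wild-type mean was 0.24. Its second probe read -0.14, -0.47, -0.15 and 0.02.

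Hsd17b7 encodes the keto-sterol reductase of the same steps. Its values were -0.89 and -0.78 in wild-type and -0.57 and -0.59 in Trp53-/-. These replicates were close to each other, and the genotypes did not overlap. After loess the gene was lower in wild-type (-0.83 ± 0.077 SD, n = 2, q = 0.00021) and in Trp53-/- (-0.58 ± 0.012 SD, n = 2, q = 0.00156). Under median centring its Trp53-/- mean was 0.16. The second probe read -0.87 and -0.62 in wild-type and -0.58 and -0.48 in Trp53-/-, also without overlap.

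The last 3 enzymes finish the ring. Ebp encodes the X-linked isomerase that shifts its double bond. With log2 ratios of -0.15 and -0.34 in wild-type and -0.27 and -0.19 in Trp53-/-, Ebp had the smallest wild-type change of the members. It was just past the threshold in wild-type (-0.25 ± 0.13 SD, n = 2, q = 0.0481) and just short of it in Trp53-/- (-0.23 ± 0.056 SD, n = 2, q = 0.0589). In wild-type it no longer passed under 11 of the 17 alternatives, among them Benjamini-Hochberg adjustment and leaving out any 1 of the 4 arrays, and turned in sign under median centring.

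Sc5d encodes the desaturase that adds the second double bond. Its values of -0.88 and -0.78 in wild-type and -0.68 and -0.69 in Trp53-/- were close within a genotype. After loess the gene was lower in wild-type (-0.83 ± 0.076 SD, n = 2, q = 0.00021) and in Trp53-/- (-0.68 ± 0.0031 SD, n = 2, q = 0.000725). Under median centring its Trp53-/- mean was 0.14.

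Dhcr7 encodes the reductase that yields cholesterol itself, and its loss causes Smith-Lemli-Opitz syndrome. The probe lies on chromosome 7 of mm9, from 151033874 to 151033933. Its log2 ratios were -0.91 and -1.40 in wild-type and -0.83 and -0.56 in Trp53-/-. The wild-type replicates differed more here than for any other member, but both were below both Trp53-/- values. After loess the gene was at 0.449 of control in wild-type (-1.15 ± 0.35 SD, n = 2, q = 0.000208), the 18th lowest of all genes. In Trp53-/- it was at 0.619 of control (-0.69 ± 0.19 SD, n = 2, q = 0.00276), but under median centring its mean there was 0.10.

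**Figure D1:**
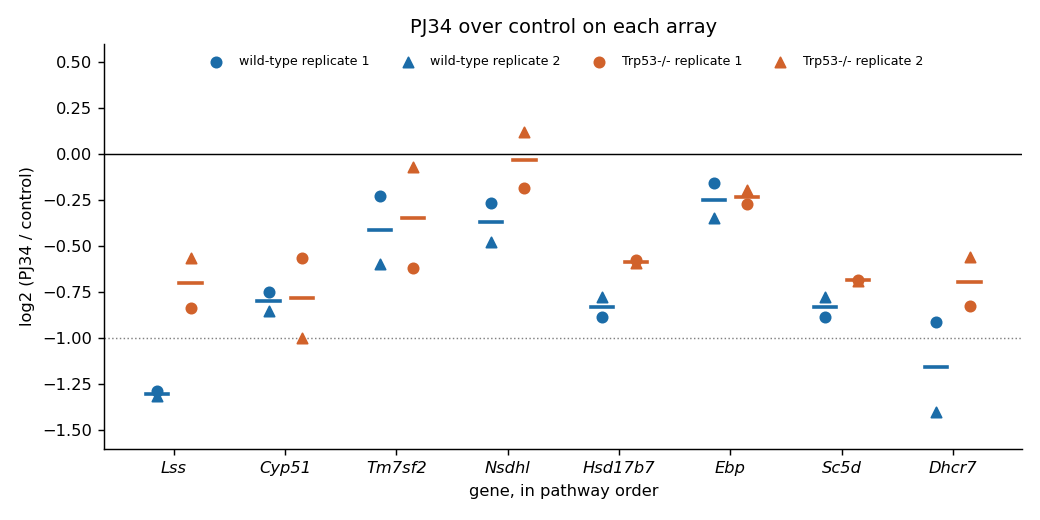
Log2 ratios of PJ34 over control (y axis) for the 8 genes in pathway order (x axis), after loess normalization; circles are replicate 1, triangles replicate 2, and bars the mean of the 2 arrays of a genotype. All points but that of Nsdhl in Trp53-/- replicate 2 lie below 0, and only Lss and Dhcr7 in wild-type have means below the dotted line at -1; under median centring instead, the Trp53-/- means of all 8 genes and the wild-type means of Tm7sf2, Nsdhl and Ebp lie above 0.

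Relative to probes of like brightness, to which the loess step sets each ratio, all 8 members were lower with PJ34 in wild-type at q below 0.05, against 11.3% of all genes. With median centring 2 were lower and 1 was higher at that threshold, against 0.415% and 59.1% of all genes. With the limit of more than 2-fold as well, Lss and Dhcr7 were called after loess, against 0.213% of all genes called lower. In Trp53-/-, 5 of the 8 (Lss, Cyp51, Hsd17b7, Sc5d and Dhcr7) were lower at q below 0.05 after loess, against 10.5% of all genes. Under median centring none was lower and 3 were higher, against 0.44% and 67.6% of all genes. After loess none was called at more than 2-fold, against 0.272% of all genes called lower. On all 4 arrays 7 of the 8 had a ratio below 0, as did 17.3% of all genes. The median of the members was -0.81 in wild-type and -0.63 in Trp53-/-, and that of all genes was 0.029 and 0.033. Without wild-type replicate 2 the wild-type counts were 5 lower and 1 called. Without Trp53-/- replicate 2, the array whose treated and untreated RNA differed in sex-linked genes, 6 were lower in Trp53-/-. Without a dye swap, a dye bias of a probe and the effect of PJ34 within a genotype cannot be told apart.

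The sign of some of these values depends on the choice of zero, that of all 8 members in Trp53-/- and of Tm7sf2, Nsdhl and Ebp in wild-type, whereas Lss, Cyp51, Hsd17b7, Sc5d and Dhcr7 were below 0 in wild-type under loess and under median centring. Before normalization, the PJ34 channel was the brighter for 3 and 6 of the 8 members on the wild-type arrays and for 8 and 7 on the Trp53-/- arrays. Median centring of each array over its probes left the median of the tested genes at 0.46 in wild-type and 0.63 in Trp53-/-. Set against that median, the members' median lay 0.71 lower in wild-type and 0.48 lower in Trp53-/-, with 8 and 6 of the 8 members below it. Nsdhl, at 0.17, and Ebp, at 0.046, were above it in Trp53-/-. Lss kept its place near the low end in wild-type, with 0.0297% of genes lower under median centring and 0.0346% under loess. In Trp53-/- its place moved, with 11.6% of genes lower under median centring and 1.22% under loess.

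**Figure D2:**
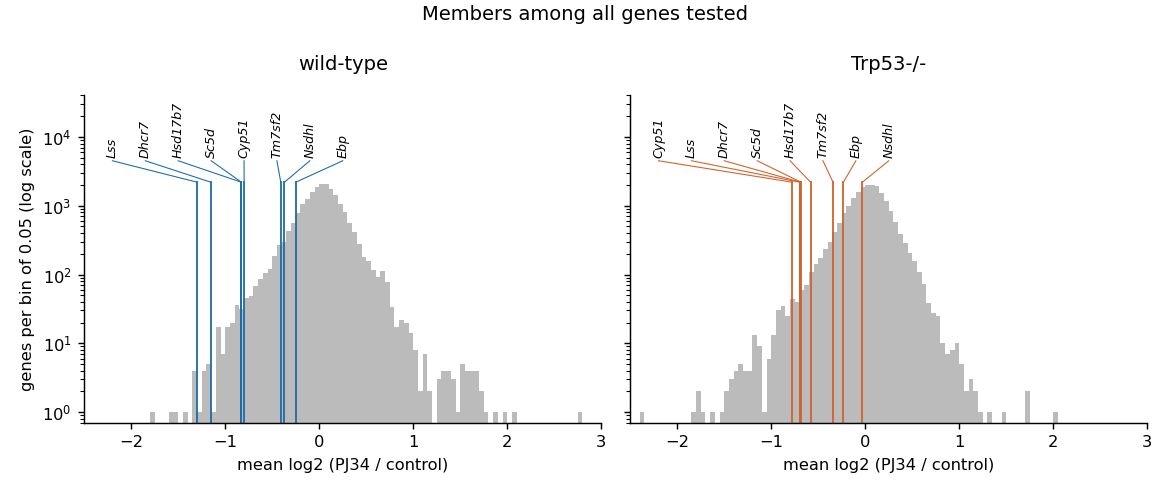
Histograms of the mean log2 ratio of PJ34 over control (x axis) of all 20228 genes after loess, with the number of genes per bin on a log y axis, for wild-type (left) and Trp53-/- (right); lines mark the 8 members. Lss and Dhcr7 stand at the low edge in wild-type at -1.30 and -1.15, whereas the lowest member in Trp53-/- is Cyp51 at -0.78; under median centring all 8 Trp53-/- values are above 0.

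Whether the response differed between genotypes was tested as the difference of the log2 ratios, wild-type minus Trp53-/-, in which a probe's dye bias cancels. The difference was below 0 for all 8 members, with a median of -0.20 against -0.0067 for all genes, and none passed q below 0.05 in limma, against 0.475% of all genes that were lower. Lss, Nsdhl and Dhcr7 had an unadjusted p below 0.05 in limma, but the share of all genes at that threshold was not counted. Lss came closest, with a difference of -0.60 (95% interval -0.907 to -0.297, q = 0.0522), and over its 16 alternatives q ran from 0.0165 to 0.264, with 7 of them past the threshold. Dhcr7 differed by -0.46 (-0.851 to -0.075, q = 0.184). Leaving out 1 array, which leaves that genotype with a lone array assumed to vary like the others, gave -0.71 without wild-type replicate 1 (q = 0.0159) and -0.22 without wild-type replicate 2 (q = 0.556), and -0.60 and -0.33 without Trp53-/- replicates 1 and 2. Nsdhl differed by -0.34 (-0.668 to -0.011, q = 0.241). For Hsd17b7 the difference was -0.25 (-0.528 to 0.0314) and for Sc5d -0.14 (-0.423 to 0.135).

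For Cyp51, Tm7sf2 and Ebp the differences were -0.019, -0.066 and -0.017. Their intervals, -0.369 to 0.332 for Cyp51, -0.492 to 0.359 for Tm7sf2 and -0.309 to 0.276 for Ebp, still allow a difference in either direction, and the sign of each turned when single arrays were left out. For 5 members (Lss, Nsdhl, Hsd17b7, Sc5d and Dhcr7) the genotypes did not overlap, with Trp53-/- above wild-type, as was so for 23.9% of all genes.

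**Figure D3:**
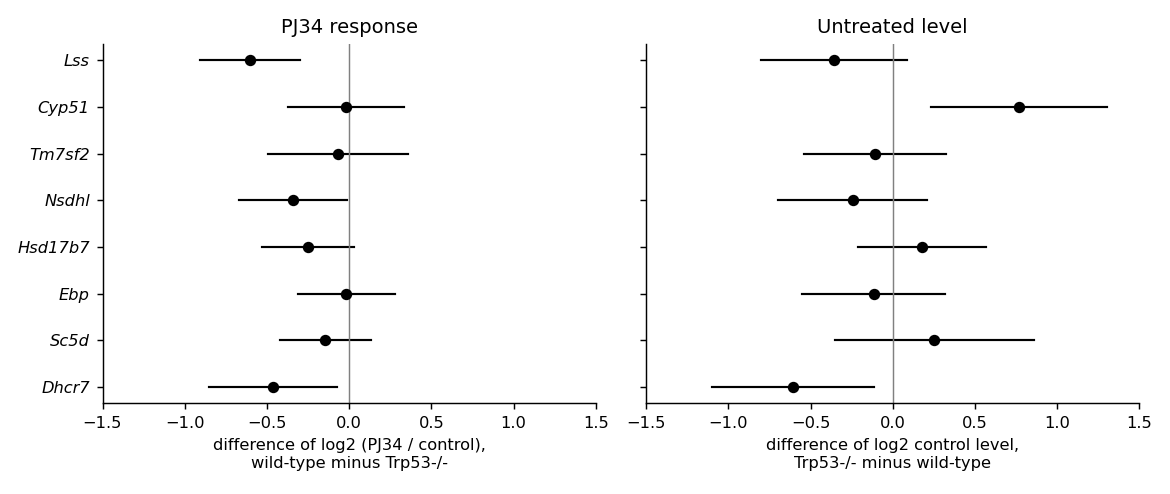
Differences between the genotypes for the 8 genes, with points for the estimate and lines for its 95% interval; the left panel gives the PJ34 response, wild-type minus Trp53-/-, and the right panel the untreated level, Trp53-/- minus wild-type, both in log2 units. In the left panel all 8 points are below 0 and the intervals of Lss, Nsdhl and Dhcr7 do not reach 0, but none of these differences passed q below 0.05; in the right panel Cyp51 at 0.77 and Dhcr7 at -0.61 stand apart on opposite sides.

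In untreated cells every member was well above background, in both channels of all 4 arrays. The members did not share a direction between genotypes. Cyp51 had log2 control levels of 9.71 and 9.18 in wild-type and 10.22 and 10.21 in Trp53-/-. It was higher in both Trp53-/- samples, by 0.77 (95% interval 0.23 to 1.304, q = 0.0666). Dhcr7 went the other way, with 10.61 and 11.04 in wild-type and 10.18 and 10.26 in Trp53-/-, a difference of -0.61 (-1.098 to -0.114, q = 0.0861). Neither passed. Both passed with the replicate number as a block (q = 0.0134 and q = 0.0489), where 9.03% of all genes were lower and 7.05% higher. The test also moved for all genes when 1 array was left out and the other of its genotype stood alone. Without wild-type replicate 1 both passed (q = 0.000378 and q = 0.00146), as did 19.8% of all genes lower and 17.1% higher, and without wild-type replicate 2 both passed (q = 0.00989 and q = 0.0257), as did 22.6% in each direction. Without Trp53-/- replicate 1 (q = 0.446 and q = 0.556) or replicate 2 (q = 0.715 and q = 0.775) neither did, with 0% of all genes past the threshold.

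Lss read 10.14 and 9.95 in untreated wild-type and 9.81 and 9.57 in untreated Trp53-/- cells (log2 level). The genotypes did not overlap, but the difference of -0.36 was not past the test (-0.801 to 0.088, q = 0.172). Hsd17b7 had alike replicates again, at 9.40 and 9.42 in wild-type and 9.57 and 9.60 in Trp53-/-, and differed by 0.18 (-0.212 to 0.569). Sc5d read 10.71 and 10.17 against 10.49 and 10.89, so that the groups overlapped. The brighter probe of Nsdhl was lower in Trp53-/- (10.80 and 10.58 against 10.57 and 10.32), whereas its second probe was not (7.74 and 8.16 against 8.14 and 8.26). Tm7sf2 and Ebp, with differences of -0.11 and -0.12, overlapped between genotypes.

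No untreated difference of a member passed q below 0.05 in limma, against 3.61% of all genes lower and 3.66% higher in Trp53-/-. Cyp51 and Dhcr7 had an unadjusted p below 0.05, for which the share of all genes was not counted. The median difference was -0.11, and that of all genes -0.0037. The genotypes did not overlap for 3 members that were lower in Trp53-/- (Lss, Nsdhl and Dhcr7), as for 29% of all genes, nor for 2 that were higher (Cyp51 and Hsd17b7), as for 27.2%. In the PJ34 channel the Lss levels were 8.85 and 8.63 in wild-type and 8.97 and 9.002 in Trp53-/-, so that Trp53-/- was then the higher, and the Dhcr7 levels, 9.70 and 9.64 in wild-type and 9.35 and 9.70 in Trp53-/-, overlapped. Levels in that channel were not tested between genotypes.

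**Figure D4:**
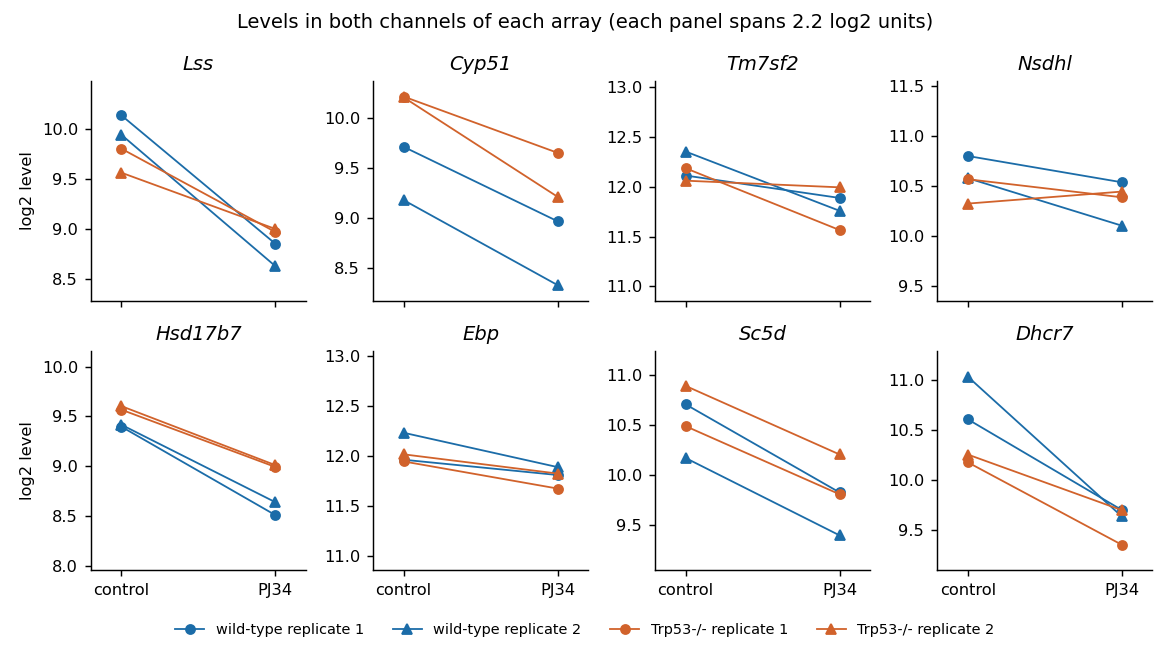
Log2 levels (y axis) of the untreated (control) and the PJ34 channel of each array, joined by a line, in 1 panel per gene, each of the same height in log2 units; levels of different genes come from different probes and are not comparable. The lines of Lss and Dhcr7 are steepest in wild-type, and those of Cyp51 start highest in both Trp53-/- samples, at 10.22 and 10.21; the slope in every panel is that after loess, and under median centring all 8 Trp53-/- means run upward.

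Markers of other cell types also moved. Of 10 markers of the oligodendrocyte lineage, cells that are rich in cholesterol, all were well above background in the untreated cells. With PJ34, 3 were lower in wild-type and 7 in Trp53-/-, against 11.3% and 10.5% of all genes. Under median centring 0 and 1 were lower, against 0.415% and 0.44% of all genes. In each genotype 6 were then higher, against 59.1% of all genes in wild-type and 67.6% in Trp53-/-. In wild-type 6 of the 10 had a ratio above 0 after loess. Mag, a glycoprotein of myelin, read -0.10 and -0.46 in wild-type and -1.14 and -1.57 in Trp53-/-, and its untreated level was 1.58 higher in Trp53-/- (q = 0.0384). Untreated, 3 of the 10 markers were higher in Trp53-/-, against 3.66% of all genes, and 1, Pdgfra, was lower (-0.71, q = 0.0497), against 3.61%. The summed linear level of the 10 markers was 41860 to 43710 in untreated wild-type and 46160 to 52950 in untreated Trp53-/-, and 38590 to 53340 and 39440 to 43700 with PJ34. The part of these cells in the members' values was not tested, and in RNA of whole cultures fewer cells of a type and less RNA per cell cannot be told apart. Of 6 astrocyte markers 3 were higher in untreated Trp53-/- cells, against 3.66% of all genes. Among them were Gfap, well above background on 3 of the 4 control channels, by 2.38 (q = 0.0139) and S100b by 1.89 (q = 0.0101). Apoe, the main lipid carrier of glia, was higher by 2.25 (q = 0.0431). Of 8 neuron markers 2 (Rbfox3 and Syt1) were higher in untreated Trp53-/- cells, against 3.66% of all genes, and 1 (Snap25) was lower, against 3.61%. Neurod1 and Stmn2 were well above background on no control channel. Of 4 endothelial markers, Pecam1, Cdh5 and Cldn5 were well above background on no control channel. Only Kdr was on all 4, and it was lower in Trp53-/- (-1.34, q = 0.0152). Whether Kdr marks endothelial cells here was not tested.

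The other genes of sterol handling are given by lists, in log2 ratios after loess. Of 5 other genes of the steps after squalene, 5 were lower in wild-type and 4 in Trp53-/- at q below 0.05. Of all genes, 11.3% and 10.5% were. Under median centring none was lower in either genotype, against 0.415% and 0.44% of all genes. In Trp53-/- 4 were then higher, against 67.6% of all genes, and in wild-type 0, against 59.1%. All 5 in wild-type and 4 of the 5 in Trp53-/- were still below the median of all genes. Sqle, Msmo1, Lbr and Erg28 are among them, and Faxdc2 had no probe. Sqle, the epoxidase that prepares squalene for Lss, had mean log2 ratios of -0.70 and -0.62. Msmo1, the methyl oxidase that works with Nsdhl, had -0.88 and -0.50. Lbr, a lamin-binding protein that carries the same reductase activity as Tm7sf2, was the exception, with -0.73 and -0.68 on the wild-type arrays and 0.03 and -0.01 on the Trp53-/- arrays. Its genotype difference of -0.71 passed (q = 0.0186), which none of the 8 members did.

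Of the 9 genes from acetyl-CoA to squalene, 8 were lower in wild-type and 7 in Trp53-/-, against 11.3% and 10.5% of all genes. Under median centring 1 and 0 were lower, against 0.415% and 0.44% of all genes. In wild-type 1 was then higher, against 59.1%, and in Trp53-/- 5, against 67.6%. In each genotype 8 lay below the median of all genes. After loess the median log2 ratio of the 9 genes was -0.71 in wild-type and -0.55 in Trp53-/-. Mvd, which makes isopentenyl pyrophosphate, fell most, with -1.23 and -1.25 in wild-type and -1.11 and -0.76 in Trp53-/-, and was called in wild-type (mean -1.24, q = 6.17e-05). Idi1, the isomerase that follows it, had means of -0.998 and -0.77. Pmvk did not pass in either genotype.

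Of 7 genes of SREBP control, Srebf2, which encodes SREBP2, and Insig1, which holds it back in the endoplasmic reticulum and is itself a target, were lower in both genotypes. Of all genes, 11.3% in wild-type and 10.5% in Trp53-/- were lower. Under median centring none of the 7 was lower, against 0.415% and 0.44% of all genes. In each genotype 5 were then higher, against 59.1% and 67.6%. Srebf2 had mean log2 ratios of -0.55 and -0.42 and Insig1 of -0.73 and -0.52. Scap and Insig2 were higher in wild-type, at 0.35 and 0.46, against 13.6% of all genes. Srebf1 was higher in Trp53-/-, at 0.36, against 12.8% of all genes. Of 6 genes of uptake and transport, 3 were lower in each genotype, against 11.3% and 10.5% of all genes. Under median centring 1 was lower in wild-type and 0 in Trp53-/-, against 0.415% and 0.44% of all genes. Higher were then 2 and 3, against 59.1% and 67.6%. Stard4, a carrier of sterol between membranes, had mean log2 ratios of -0.69 and -0.46.

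LXR is a nuclear receptor that oxysterols activate, and some of its targets export cholesterol. Of 6 genes of LXR, its targets and efflux, 4 were higher in each genotype, where 13.6% of all genes were in wild-type and 12.8% in Trp53-/-, and none was lower. In Trp53-/- the 4 include Mylip, at the edge of the threshold and well above background on 1 of the 4 control channels. Under median centring 5 and 6 of the 6 were higher, as were 59.1% of all genes in wild-type and 67.6% in Trp53-/-, and 1 and 2 of the 6 lay below the median of all genes. Abca1, the exporter of cholesterol to apolipoproteins, read 1.11 and 0.66 in wild-type and 0.67 and 0.99 in Trp53-/-. Of 8 genes of fatty acid synthesis, 6 were lower in wild-type with a median of -0.39, against 11.3% of all genes. In Trp53-/- 3 were lower with a median of -0.15, against 10.5%. Under median centring none was lower, against 0.415% and 0.44% of all genes, and 3 and 7 were higher, against 59.1% and 67.6%. Fasn, the fatty acid synthase, was higher in Trp53-/- (mean 0.44, q = 0.00762) and had 0.056 in wild-type.

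**Figure D5:**
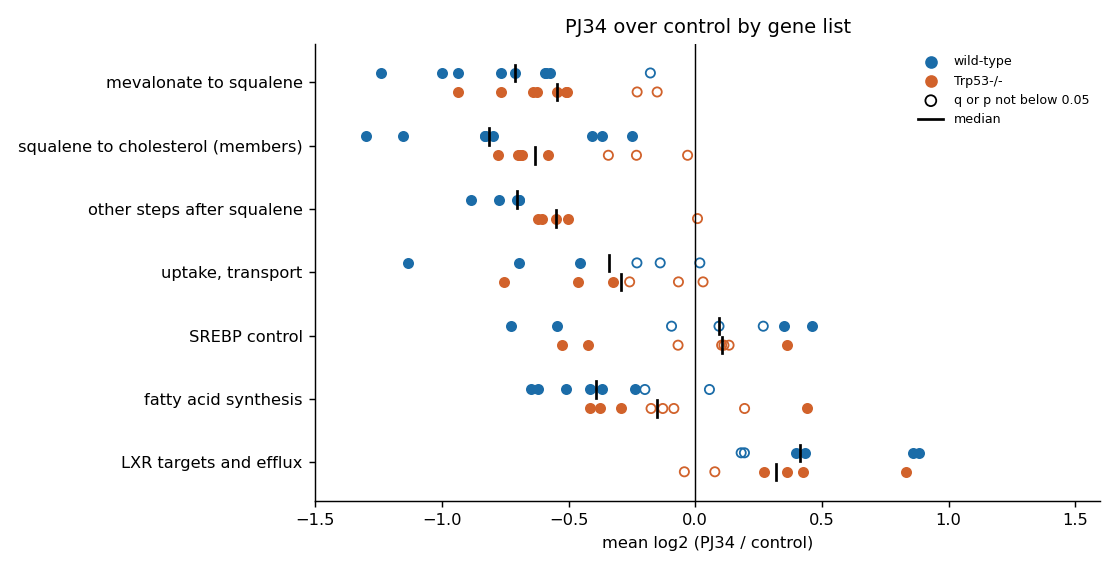
Mean log2 ratio of PJ34 over control (x axis) of each gene after loess, by list (y axis), in wild-type (blue) and Trp53-/- (orange); filled circles passed q and p below 0.05, open circles did not, and black bars are the list's median. The 3 lists of cholesterol synthesis have medians between -0.81 and -0.55 and the LXR list has medians of 0.42 and 0.32; under median centring the median of the 8 members is -0.25 in wild-type and 0.15 in Trp53-/-.

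The genes whose pattern was most like the mean of the 8 members were sought over 8 values, the 4 log2 ratios and the 4 untreated levels centred per gene. The nearest 5 were Scpep1, Erg28, Insig1, Dazap1 and Ddah2, with root mean square differences of 0.054 to 0.081 log2 units. Hsd17b7 was the member nearest to that mean, at 0.12 and rank 14, and Cyp51 the farthest, at 0.36 and rank 2202. The next member, Sc5d, was at rank 225, so that many non-members lay closer to that mean than most members did. Erg28 read -0.76 and -0.80 in wild-type and -0.70 and -0.51 in Trp53-/-, close to the mean of the members of -0.67, -0.82, -0.57 and -0.44. All these values come from the same 4 arrays.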

How the data were processed

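Feature Extraction 10.7.3.1 was used by the authors, per the labels, to read the arrays. The deposited intensity values give, uncorrected and for each colour, a spot's mean brightness and its median local background. The deposited log10 ratios of the same software were used only as an alternative. A whole-series table with 4 columns of values named by number was not used. Positions on mm9 are those of the files, and promoter sequences those of RefSeq on GRCm38.p6.

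Background was corrected by normexp with an offset of 50, and ratios were normalized by loess within arrays (limma 3.58.1, R 4.3.3). Control levels were also quantile-normalized on mean intensity between arrays. Outlier spots (228 to 276 per array) were left out. Probes had to be well above background, in either channel, on both arrays of some genotype, which kept 27037, and a gene was read from its brightest probe. limma's linear model of the 4 arrays had a mean per genotype. Moderation raised the 2 residual degrees of freedom to 10.3 for ratios and 6.17 for levels. Genes passed at p and Storey's q below 0.05 and were called at more than 2-fold as well, the study's criteria. SDs cover 2 arrays. Replicate numbers were not taken to pair the arrays, since same-numbered deviations correlated at -0.178 for ratios and 0.0809 for levels. All 8 members and every gene named were taken by lists, and the genes most like the members by the smallest root mean square difference. The members and lists were chosen with earlier results of these data known. The fit was tested on simulated data. The alternatives were no background correction, an offset of 16, the software's ratios, scaling between arrays, median centring, a strict filter on dim probes or none, each genotype alone, other models of the control channel, the replicate block, a variance trend, Benjamini-Hochberg adjustment, the mean of a gene's probes and leaving out each array. Some listed genes count in their lists but are not reported here by name.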

Additional observations from a re-analysis of the deposited data

How the results depend on the processing

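In wild-type the number of members lower at q below 0.05 stayed at 6 to 8 under every alternative but the scanner software's values (5), median centring (2, with 1 higher and 0 called at more than 2-fold) and leaving out arrays (5 to 7, with 1 to 2 called). Their median of -0.81 became -0.86 with no background correction, -0.88 with an offset of 16, -0.93 with the software's values and -0.25 with median centring, and -0.81 to -0.78 without single arrays. Under median centring, which moves the zero for all genes, Tm7sf2 (0.25), Nsdhl (0.24) and Ebp (0.41) turned in wild-type. In Trp53-/- the median of -0.63 became -0.67 with no background correction and with an offset of 16, -0.70 with the software's values and 0.15 with median centring, and -0.63 to -0.56 without single arrays. Median centring left 0 members lower and 3 higher there, and every member turned, to 0.052 (Lss), 0.011 (Cyp51), 0.57 (Tm7sf2), 0.80 (Nsdhl), 0.16 (Hsd17b7), 0.67 (Ebp), 0.14 (Sc5d) and 0.10 (Dhcr7). Without single arrays the Trp53-/- value of Nsdhl ranged from -0.18 to 0.12.

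For the difference in response, 1 member was lower at q below 0.05 with scaling between arrays, with no filter and with the strict filter on dim probes, and 0 to 2 were without single arrays. The median of -0.20 became -0.22 with an offset of 16, -0.26 with the software's values, -0.41 with median centring and -0.24 with scaling between arrays, and -0.29 to -0.21 without single arrays, whose differences ran from -0.24 to 0.20 for Cyp51, from -0.34 to 0.21 for Tm7sf2 and from -0.11 to 0.079 for Ebp. For the untreated level, the number of members lower was 0 to 2, higher 0 to 2 and called 0 to 1 without single arrays. With the software's values the median was 0.020, Tm7sf2 0.012 and Ebp 0.028, and with the mean of a gene's probes Nsdhl was 0.0024. Without single arrays Tm7sf2 ran from -0.23 to 0.011, Ebp from -0.25 to 0.018 and Sc5d from -0.017 to 0.52. The causes of these shifts were not tested, other than where fewer arrays or another zero make them.

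With the replicate number as a block, 7 members were lower in wild-type and 6 in Trp53-/-, 1 differed in response, and 1 was lower and 1 higher untreated. With the numbers crossed, chosen after seeing the data, 8 were lower in wild-type, 7 in Trp53-/- and 2 differed in response. A slide block was not run, since each array had its own slide. All probes of the members were well above background, and each genotype had 2 arrays.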
